A study of Mus musculus with 8 samples.

Results

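Sparc and its relatives are secreted proteins of the extracellular matrix, joined by a follistatin-type domain and, in most of them, a calcium-binding domain first described in Sparc. The 8 genes followed here were Sparc, Sparcl1, the testicans Spock1, Spock2 and Spock3, the modular proteins Smoc1 and Smoc2, and Fstl1. They were found as all probe sets whose single gene symbol in the array annotation is one of these names, which gave 15 of the 45101 probe sets on the array. Of the 8 genes, 6 had several probe sets, and each probe set was read on its own.

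Such proteins are called matricellular, because they sit in the matrix and alter how cells respond to it rather than giving it strength. Sparc binds collagens and helps to assemble collagen fibrils and basement membranes, and mesenchymal and endothelial cells make much of it. The testicans carry sugar chains of the heparan or chondroitin sulfate type and can block or shield proteases, while Smoc proteins and Fstl1 are known for their effects on bone morphogenetic protein (BMP) signalling. In the choroid plexus, where an epithelium rests on a vascular stroma and secretes cerebrospinal fluid, such proteins belong to the stroma, the vessel wall and the basement membrane between them.

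The arrays measured total RNA of choroid plexus dissected from the fourth ventricle of mouse embryos on embryonic day 13. One group of 4 arrays came from mice labelled as lacking Otx2, a transcription factor with a homeodomain that acts in forebrain and choroid plexus development, and the other 4 from wildtype mice of the same litters. Both groups had a mixed strain background, undetermined sex and no treatment, and each array is labelled a biological replicate. The labels cite a published Otx2-deficient strain, but how and when the gene was removed, and how many embryos each array stands for, is not stated in the sources read for this work. Values are log2 levels from RMA, a method that brings all arrays to one distribution, and array medians lay between 5.85 and 5.9. A difference of 1 on this scale is a factor of 2.

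Otx2 itself was not lower. Its only probe set read 12.44 ± 0.04 in the knockout-labelled arrays and 11.97 ± 0.09 in wildtype (SD, n = 4 each), a difference of 0.47 with an SE of 0.07 (limma, adjusted p = 0.00134). Neither labels nor files place its probes relative to the deleted part, so the probe set may check nothing about the labels. Each direction below therefore rests on the label, and the group is called knockout-labelled.

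The members were chosen in part on their log2 differences between the groups in these same arrays, so those differences are a description and carry no p-value here. Spock3 and Smoc2 stood highest above wildtype, followed by Smoc1. Fstl1 was higher by a small amount, and the other members gave differences from -0.14 to 0.27. In a limma comparison of all 45037 non-control probe sets, 6 of the 15 member probe sets passed an adjusted p of 0.05 with higher values, where 5.27% of all probe sets did (12.7% in either direction), and 0 passed with lower values, against 7.46% of all. The groups did not overlap in 8 of the 15, all higher, where 8.04% of all probe sets had knockout-labelled arrays wholly above wildtype and 18.8% had no overlap in either direction. The median difference was 0.18 over the 15 and 0.01 over all probe sets. Nothing is read from these shares, since the choice of members used the same contrast. Of the 6, 3 were lost with the replicate number as a block (limma): both Fstl1 probe sets and the dimmer of Smoc2.

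**Figure D1:**
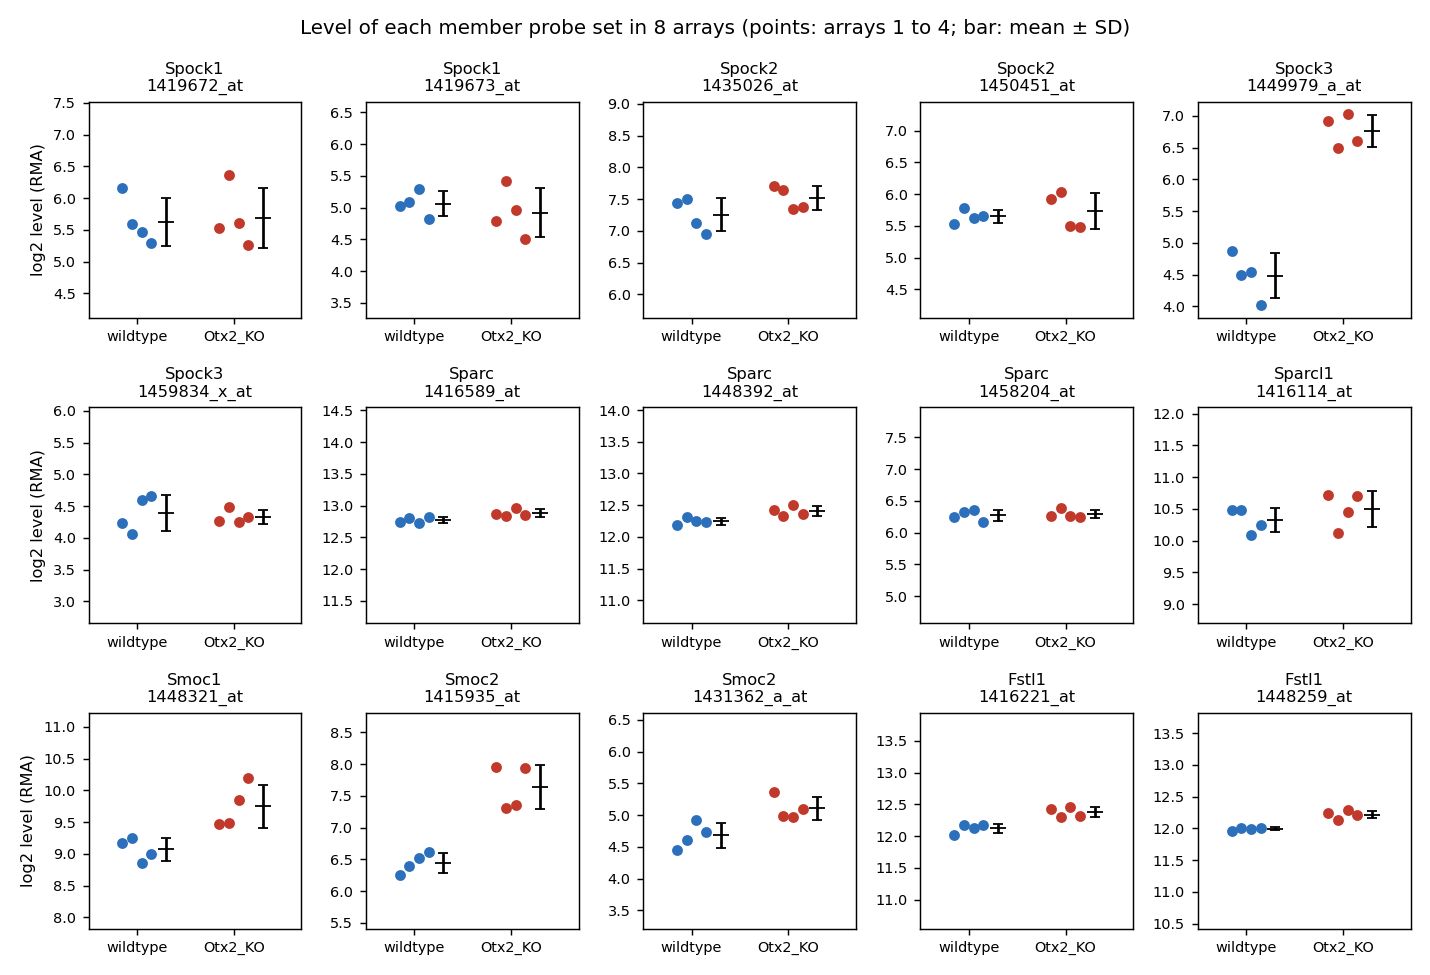
Log2 RMA level of each of the 15 member probe sets on the y axis (every panel spans the same 3.4-unit range), with the 4 wildtype and 4 knockout-labelled arrays as points and the group mean ± SD as a bar. The groups are separated by a wide gap for Spock3 (1449979_a_at) and Smoc2 (1415935_at), and the bright Sparc and Fstl1 probe sets vary little.

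Among the testicans, 1 Spock3 probe set showed the largest difference of the 15. Testicans are proteoglycans with a thyroglobulin-type domain, best known from the brain. Probe set 1449979_a_at of Spock3 read 6.93, 6.50, 7.02 and 6.60 in knockout-labelled arrays 1 to 4, and 4.88, 4.50, 4.53 and 4.02 in wildtype arrays 1 to 4. The lowest knockout-labelled array thus lay well above the highest wildtype array. The means were 6.76 ± 0.25 and 4.48 ± 0.35 (SD, n = 4 each), a difference of 2.28 with an SE of 0.18. Same-numbered arrays differed by 2.00 to 2.58. The wildtype level was close to the lower quartile of all probe sets (4.34) and, with no detection calls used here, cannot be told from background, so no fold is given. In bulk RNA, a higher value from more cells of a type and one from more RNA per cell cannot be told apart.

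A second, dimmer Spock3 probe set gave no such difference. Probe set 1459834_x_at read 4.26, 4.49, 4.25 and 4.33 in the knockout-labelled arrays and 4.24, 4.06, 4.60 and 4.65 in wildtype. All 8 values lay near the lower quartile, the groups overlapped, and the difference was -0.06 with an SE of 0.13. The suffix of this probe set marks probes that can also match other transcripts. The Spock3 rise therefore rests on 1 of its 2 probe sets.

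Neither Spock1 nor Spock2 passed the threshold, and the groups overlapped in all 4 of their probe sets. Spock1 probe set 1419672_at read 5.52, 6.36, 5.61 and 5.27 in the knockout-labelled arrays and 6.16, 5.59, 5.46 and 5.29 in wildtype. One array of each group, knockout-labelled replicate 2 and wildtype replicate 1, stood above the other 6. The difference was 0.06 with an SE of 0.24. It was -0.16 without knockout-labelled replicate 2 and 0.24 without wildtype replicate 1. The other Spock1 probe set, 1419673_at, differed by -0.14 (SE 0.18), again with its highest value, 5.42, in knockout-labelled replicate 2.

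Spock2 probe set 1435026_at read 7.71, 7.65, 7.35 and 7.37 in the knockout-labelled arrays and 7.44, 7.51, 7.12 and 6.95 in wildtype. The groups overlapped, although each knockout-labelled array was above the wildtype array of the same number, by 0.14 to 0.42. The difference was 0.27 with an SE of 0.14. The dimmer probe set 1450451_at gave 5.73 ± 0.29 against 5.65 ± 0.10, a difference of 0.08 with an SE of 0.13.

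Neuron markers varied between arrays of the same group, and Spock1 probe set 1419672_at varied beside them. The mean log2 level of 10 neuron markers was 8.27, 9.34, 7.76 and 8.25 in knockout-labelled arrays 1 to 4, and 9.03, 8.58, 7.62 and 7.40 in wildtype arrays 1 to 4. Its highest arrays in each group, knockout-labelled replicate 2 and wildtype replicate 1, were the ones that read highest for Spock1 probe set 1419672_at. The other Spock1 probe set, 1419673_at, shared only the first of these. Among wildtype arrays it read highest in replicate 3 (5.30), with 5.02 in replicate 1. Spock2 probe set 1435026_at shared the lowest array of each group with the neuron markers, knockout-labelled replicate 3 and wildtype replicate 4, but not the highest. The dimmer Spock2 probe set 1450451_at shared only the highest knockout-labelled array, replicate 2. The difference of 1419672_at was -0.06 with the neuron marker mean as a covariate. It was 0.02 without both knockout-labelled replicate 2 and wildtype replicate 1, each alternative added after seeing the data. For Spock3 probe set 1449979_a_at, wildtype replicate 1 was also the highest and replicate 4 the lowest of the wildtype arrays, as for the neuron markers, while knockout-labelled replicate 2 was the lowest of its group. Its difference was 2.26 with the covariate and 2.50 without those arrays.

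**Figure D2:**
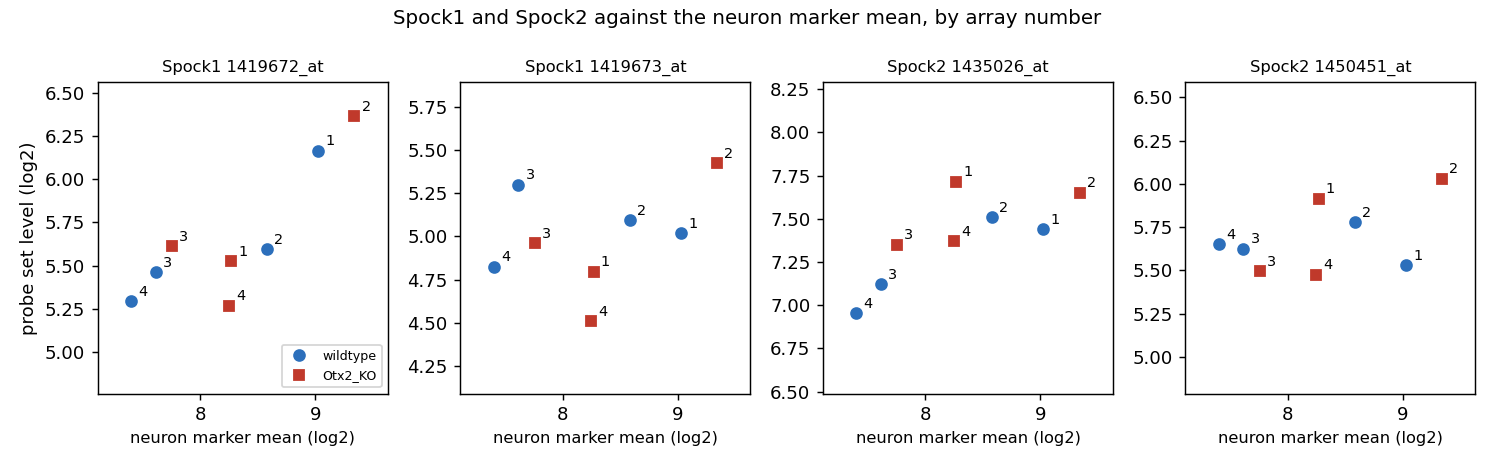
Log2 level of the Spock1 and Spock2 probe sets on the y axis against the mean log2 level of 10 neuron markers on the x axis, with each point labelled by its array number and coloured by group. For Spock1 probe set 1419672_at, knockout-labelled replicate 2 and wildtype replicate 1 are at the upper right of the panel.

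The reference sequences around the starts of Spock3 and Spock1 are shown, for the testican with the largest difference and another with almost none. Each is a RefSeq window (GRCm38.p6) from 250 bases before the annotated start to 50 after it, on the strand of the gene, written 5′ to 3′ with CpG dinucleotides in capitals. Spock3 lies on the plus strand at chr8:62950982-62951281 and Spock1 on the minus strand at chr13:57908283-57908582.
Spock3: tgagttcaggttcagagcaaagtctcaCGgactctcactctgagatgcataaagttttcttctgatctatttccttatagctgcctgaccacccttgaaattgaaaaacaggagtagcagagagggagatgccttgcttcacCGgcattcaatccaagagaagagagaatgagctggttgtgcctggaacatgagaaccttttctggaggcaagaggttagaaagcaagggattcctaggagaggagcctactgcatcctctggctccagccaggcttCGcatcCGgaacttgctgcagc
Spock1: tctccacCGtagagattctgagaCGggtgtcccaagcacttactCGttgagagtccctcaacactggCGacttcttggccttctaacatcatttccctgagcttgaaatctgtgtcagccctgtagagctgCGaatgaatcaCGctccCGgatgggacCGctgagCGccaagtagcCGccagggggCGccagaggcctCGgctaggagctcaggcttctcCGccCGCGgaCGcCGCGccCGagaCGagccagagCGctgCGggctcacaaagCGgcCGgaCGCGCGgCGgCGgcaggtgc
The Spock3 window held 4 CpG dinucleotides and 49.0% G or C, and that of Spock1 held 29 and 64.0%. A second annotated start of Spock3, 113 bases downstream, had 7, which is also the median over all 32851 windows of the same length. Any link between CpG content and the difference between the groups was not tested.

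Windows were matched for 5 of the 8 members, namely Spock1, Spock2, Spock3, Sparc and Fstl1, with 6 windows in all. Spock2 held 10 CpG dinucleotides, Sparc 4 and Fstl1 21. The 6-base core TAATCC, the sequence that Otx2-type homeodomains are known to prefer, was searched on both strands. It occurred in 0 of the 6 member windows and in 7.06% of all windows. This says only that these letters are not in those windows.

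Smoc1 and Smoc2 both stood above wildtype. Smoc1 and Smoc2 encode modular calcium-binding proteins found at basement membranes, and Smoc1 is known as an inhibitor of BMP signalling. Smoc2 probe set 1415935_at read 7.96, 7.31, 7.36 and 7.93 in knockout-labelled arrays 1 to 4 and 6.26, 6.39, 6.52 and 6.61 in wildtype arrays 1 to 4. The groups were well separated, and replicates 1 and 4 were the higher ones within the knockout-labelled group. The means were 7.64 ± 0.35 and 6.44 ± 0.16 (SD, n = 4 each), a difference of 1.19 with an SE of 0.16, or 2.29-fold.

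The dimmer Smoc2 probe set, 1431362_a_at, pointed the same way with a smaller difference. It read 5.36, 4.98, 4.97 and 5.10 in the knockout-labelled arrays and 4.46, 4.61, 4.92 and 4.74 in wildtype. The groups did not overlap, but the gap between the lowest knockout-labelled and the highest wildtype array was narrow. The difference was 0.42 with an SE of 0.12, and ranged from 0.34 to 0.50 when 1 array was left out. It fell short of the threshold in each of those comparisons except those without knockout-labelled replicate 2 or wildtype replicate 3.

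Smoc1 had a single probe set, which read 9.47, 9.49, 9.85 and 10.19 in the knockout-labelled arrays and 9.18, 9.25, 8.85 and 8.99 in wildtype. The groups did not overlap, but replicates 1 and 2 of the 2 groups were close to each other while replicates 3 and 4 were far apart. The same-numbered differences were 0.29, 0.24, 1.00 and 1.20. The means were 9.75 ± 0.34 and 9.07 ± 0.18 (SD, n = 4 each), a difference of 0.68 with an SE of 0.16, or 1.60-fold. It missed the threshold when replicate 3 of the knockout-labelled arrays (0.65) or replicate 3 (0.61) or 4 (0.65) of wildtype was left out, and was 0.53 without knockout-labelled replicate 4.

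Fstl1, a secreted glycoprotein of mesenchymal cells that binds BMP ligands, was higher by a small amount. Probe set 1416221_at read 12.43, 12.31, 12.46 and 12.31 in the knockout-labelled arrays and 12.02, 12.18, 12.13 and 12.17 in wildtype. Probe set 1448259_at read 12.24, 12.14, 12.28 and 12.21 against 11.96, 12.01, 11.99 and 12.00. Same-numbered arrays differed by 0.12 to 0.41 and by 0.13 to 0.29. In both probe sets all 4 knockout-labelled arrays were above all 4 wildtype arrays. The differences were 0.25 (SE 0.07) and 0.22 (SE 0.06), or 1.19-fold and 1.17-fold, from probe sets designed on the same sequence accession. Neither passed the threshold with any single array left out except knockout-labelled replicate 2. Those differences ranged from 0.22 to 0.28 and from 0.20 to 0.25.

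Sparc, the collagen-binding protein that names the family, was nearly level between the groups. Its brightest probe set, 1416589_at, read 12.87, 12.83, 12.97 and 12.85 in the knockout-labelled arrays and 12.75, 12.81, 12.73 and 12.82 in wildtype. Probe set 1448392_at read 12.43, 12.34, 12.50 and 12.36 against 12.18, 12.31, 12.26 and 12.24. In both, the knockout-labelled arrays lay just above wildtype without overlap, by 0.10 (SE 0.06) and 0.16 (SE 0.07). Neither passed the threshold, and the second did so only with a trended, robust variance prior. The dimmer probe set 1458204_at gave 6.29 ± 0.06 against 6.27 ± 0.09, a difference of 0.01 with an SE of 0.07.

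Sparcl1, also called hevin, is made by vessels and glia and takes part in synapse formation. Its probe set read 10.71, 10.12, 10.46 and 10.71 in the knockout-labelled arrays and 10.48, 10.48, 10.09 and 10.25 in wildtype. The groups overlapped, and knockout-labelled replicate 2 was lower than 3 of the wildtype arrays. The difference was 0.18 with an SE of 0.14. It was 0.30 without knockout-labelled replicate 2 and 0.10 without either knockout-labelled replicate 1 or wildtype replicate 3.

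**Figure D3:**
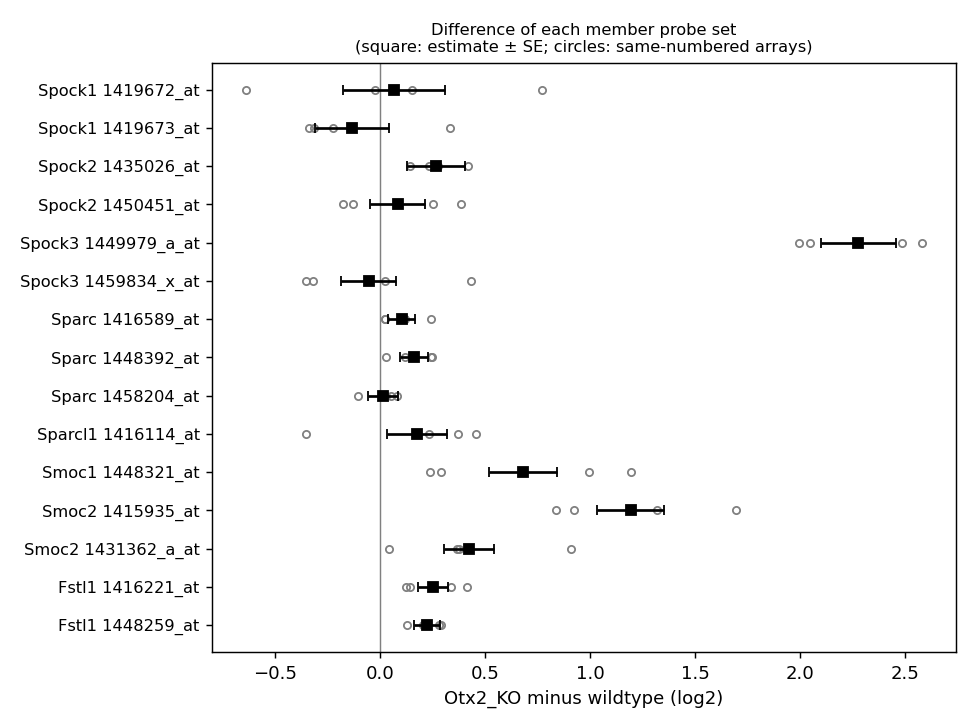
Difference of knockout-labelled minus wildtype on the log2 scale for each of the 15 member probe sets: squares with bars are the limma estimate ± SE, and open circles are the 4 differences between same-numbered arrays. Spock3 probe set 1449979_a_at is at 2.28, and the 4 circles of Smoc1 spread from 0.24 to 1.20.

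The genes nearest to these members in their profile over the 8 arrays were found by the root mean square distance after each probe set was centred on its own mean. Nearest to Spock3 were Plppr1, a membrane protein of growing neurites, at a distance of 0.25 log2 units, and then Cp, the copper-carrying ferroxidase ceruloplasmin, and Fmod, the collagen-binding proteoglycan fibromodulin, each at 0.27. Their own differences were 1.96, 2.16 and 2.10. Nearest to Smoc2 were Mmp17, a membrane-type metalloprotease (0.20), Meg3, a maternally expressed noncoding RNA (0.21), and Steap4, a metalloreductase (0.21), with differences of 1.13, 1.12 and 0.99. Nearest to Smoc1 were Cldn19, a claudin (0.12), B230216N24Rik (0.12) and Slc2a4rg-ps (0.13), with differences of 0.60, 0.54 and 0.54. B230216N24Rik was dim, at 3.19 ± 0.27 against 2.66 ± 0.18 (SD, n = 4 each). Likeness over 8 arrays in 2 groups is mainly likeness of the group difference.

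**Figure D4:**
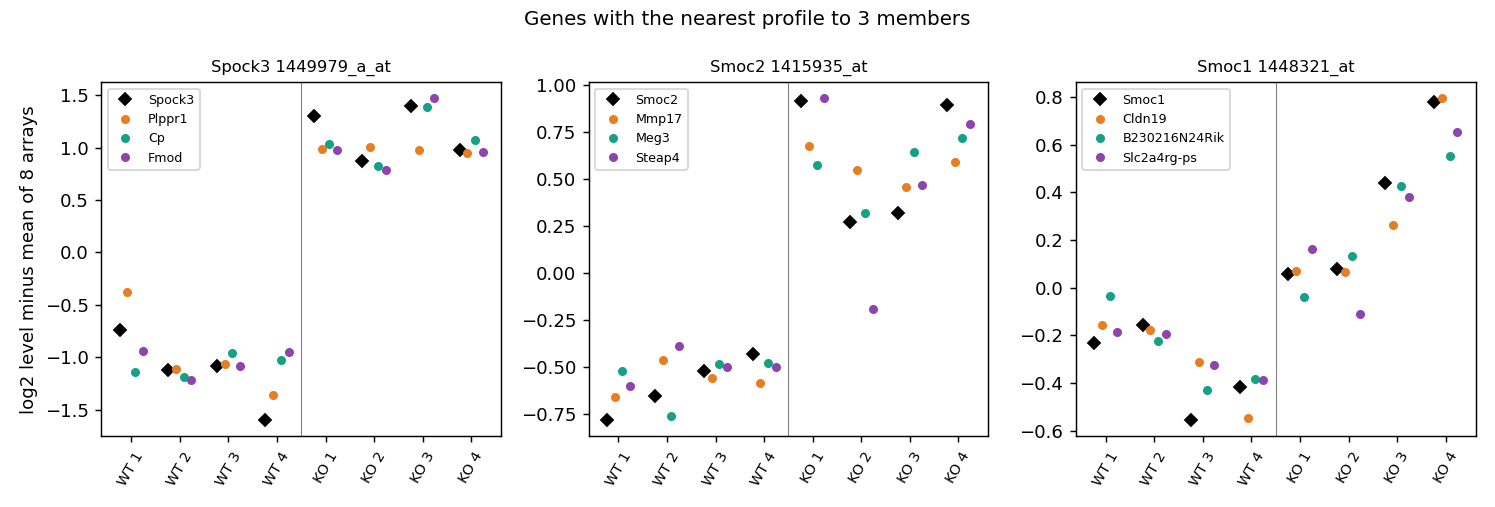
Log2 level minus the mean over 8 arrays (y axis) in each wildtype and knockout-labelled array (x axis) for Spock3, Smoc2 and Smoc1 (black diamonds) and the 3 genes nearest to each (coloured circles). The Smoc1 panel shows knockout-labelled arrays 1 and 2 near the mean and arrays 3 and 4 above it.

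Several partners of Sparc in the matrix rose. The gene lists here and below were chosen with earlier results of these data known, so their counts are a description. Of 15 genes listed as partners that bind, clear or cross-link Sparc or are bound by it, 7 rose and 2 fell, with a median difference of 0.45. Over 18193 genes, each read by its brightest probe set, 6.31% rose and 10.2% fell (16.5% in all), with a median of 0.00, and each list count below is to be set beside these shares. The fibrillar collagens Col5a1, Col1a2 and Col3a1 rose by 0.64 (SE 0.08, limma adjusted p = 0.000702), 0.55 (SE 0.08, limma adjusted p = 0.00124) and 0.45 (SE 0.06, limma adjusted p = 0.00127). The 4 others that rose were Stab1, the scavenger receptor that clears Sparc, Col5a2, Col1a1 and Tgm2, a cross-linking transglutaminase. Col1a1, Col1a2 and Col3a1 are also among the stroma markers counted below. The growth factor genes Vegfa and Pdgfa, both on this list, fell by 0.32 (limma adjusted p = 0.0116) and 0.33 (limma adjusted p = 0.0197). Pdgfb, the other platelet-derived growth factor gene on the list, differed by -0.07 and did not pass. A dimmer Vegfa probe set gave -0.18 and did not pass. The Pdgfa call did not hold when knockout-labelled replicate 1 was left out (limma adjusted p = 0.0554), nor without replicate 3 (0.0572) or replicate 4 (0.0619) of wildtype. A dimmer Pdgfa probe set fell by 0.36 with all arrays (limma adjusted p = 0.013). The basement membrane chains Col4a1 and Col4a2, at 0.26 each, did not pass.

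Of 22 other matricellular proteins measured, 4 rose and 1 fell, with a median of 0.09. The fibulins Fbln1 and Fbln2, which link elastic fibres and basement membranes, rose by 0.82 (SE 0.07, limma adjusted p = 5.98e-05) and 1.08 (SE 0.14, limma adjusted p = 0.000808). Ccn4, a secreted target of Wnt signalling, rose by 0.51 (limma adjusted p = 0.0033), and Fbln5 was the fourth. A further, dimmer probe set of Fbln2 gave -0.03. Thbs1, the angiogenesis inhibitor thrombospondin-1, fell by 0.57 (SE 0.13, limma adjusted p = 0.0157), but not without wildtype replicate 3 (-0.55, limma adjusted p = 0.0506). A dimmer Thbs1 probe set fell by 0.54 with all arrays (limma adjusted p = 0.0113). Without knockout-labelled replicate 2, 8 of the 22 passed. The tenascin Tnc, at 0.56 by its brightest probe set, did not pass and varied widely in the knockout-labelled arrays (SD 0.84). A dimmer Tnc probe set rose by 0.66 (limma adjusted p = 0.0376). Both of its group means, 4.25 against 3.58 in wildtype, were dimmer than the quartile of 4.34. A dimmer Ccn1 probe set rose by 0.47 (limma adjusted p = 0.00338), while the other Ccn1 probe sets gave 0.05 to 0.27 and did not pass.

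Other proteins with follistatin-type domains showed 1 rise and 1 fall among 11, a share near the 16.5% of all genes that passed, with a median of 0.09. Wfikkn2, a secreted antagonist of myostatin-like ligands, went from 10.50 ± 0.05 to 9.34 ± 0.18 (SD, n = 4 each), a difference of -1.16 with an SE of 0.09 (limma adjusted p = 4.56e-05). Agrn, the basement membrane proteoglycan agrin, rose by 0.46 (SE 0.08, limma adjusted p = 0.00358), while a second probe set of it gave 0.01. Fst, the activin antagonist follistatin, differed by 0.37 and did not pass. Fstl3, Fstl4 and Fstl5, at 0.09, -0.01 and -0.02, did not pass either.

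Smoc proteins and Fstl1 are known to act on BMP signalling. Of 20 genes of that pathway measured, 3 rose and 1 fell, with a median of 0.09. Id4, a target of BMP signals, rose by 0.65 (SE 0.11, limma adjusted p = 0.00396). Smad1, a signal transducer, rose by 0.24 (limma adjusted p = 0.0457) and Id2 by 0.28 (limma adjusted p = 0.0487). Neither held with the replicate number as a block (limma adjusted p = 0.0518 and 0.068), and 2 of the 20 then passed. Both were lost in 7 of the 8 comparisons that left out 1 array (limma adjusted p up to 0.122), Smad1 in all but that without knockout-labelled replicate 2 and Id2 in all but that without knockout-labelled replicate 3. Bmp6 fell by 0.55 (limma adjusted p = 0.0342), but not without knockout-labelled replicate 1 (-0.50) or wildtype replicate 2 (-0.54), 3 (-0.54) or 4 (-0.51), with limma adjusted p up to 0.1. Dimmer Smad1 probe sets gave 0.31 (limma adjusted p = 0.0487) and 0.29, of which only the first passed. Dimmer Id2 probe sets gave 0.35 (limma adjusted p = 0.0249) and 0.41, of which again only the first passed. Bmp4, the ligand best known to bind Fstl1, differed by 0.01, and Dip2a, a receptor of Fstl1, by 0.08.

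Of 13 measured proteases and inhibitors connected with testicans, 4 rose and 0 fell, with a median of -0.02. Mmp17, a membrane-type metalloprotease, went from 6.47 ± 0.08 to 7.60 ± 0.09 (SD, n = 4 each), a difference of 1.13 with an SE of 0.07 (limma adjusted p = 1.71e-05). Mmp14, the collagen-cleaving membrane-type enzyme, rose by 0.36 (limma adjusted p = 0.00658), the inhibitor Timp2 by 0.39 (limma adjusted p = 0.0114) and the inhibitor Timp1 by 0.49. Mmp2, a gelatinase that Mmp14 activates, differed by -0.08, and cathepsin L (Ctsl), a protease that testicans can shield, by -0.18. Neither passed. A dimmer Ctsb probe set fell by 0.36 (limma adjusted p = 0.0338) and a dimmer Timp3 probe set by 0.31 (limma adjusted p = 0.0219). A dimmer Mmp16 probe set rose by 0.43 (limma adjusted p = 0.0261). The brightest probe sets of these genes, which the counts use, did not pass.

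Testicans belong to the proteoglycans, and of 20 other proteoglycan cores 6 rose and 2 fell, with a median of 0.23. The 6 include Agrn, already counted above as the rise among proteins with follistatin-type domains. Gpc4, a membrane-anchored glypican, rose by 0.80 (SE 0.09, limma adjusted p = 0.000414), Vcan, the large matrix proteoglycan versican, by 0.80 (SE 0.12, limma adjusted p = 0.0017) and Col18a1, a basement membrane collagen, by 0.42 (SE 0.07, limma adjusted p = 0.00349). The syndecan Sdc4 fell by 0.54 (limma adjusted p = 0.0049) and the glypican Gpc3 by 0.25 (limma adjusted p = 0.032). The Gpc3 call was lost with the replicate number as a block (limma adjusted p = 0.0505) and in each comparison without 1 array except knockout-labelled replicate 2 (-0.26 to -0.21, limma adjusted p up to 0.0947). Further probe sets of Vcan, all dimmer, gave from -0.11 to 0.75.

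**Figure D5:**
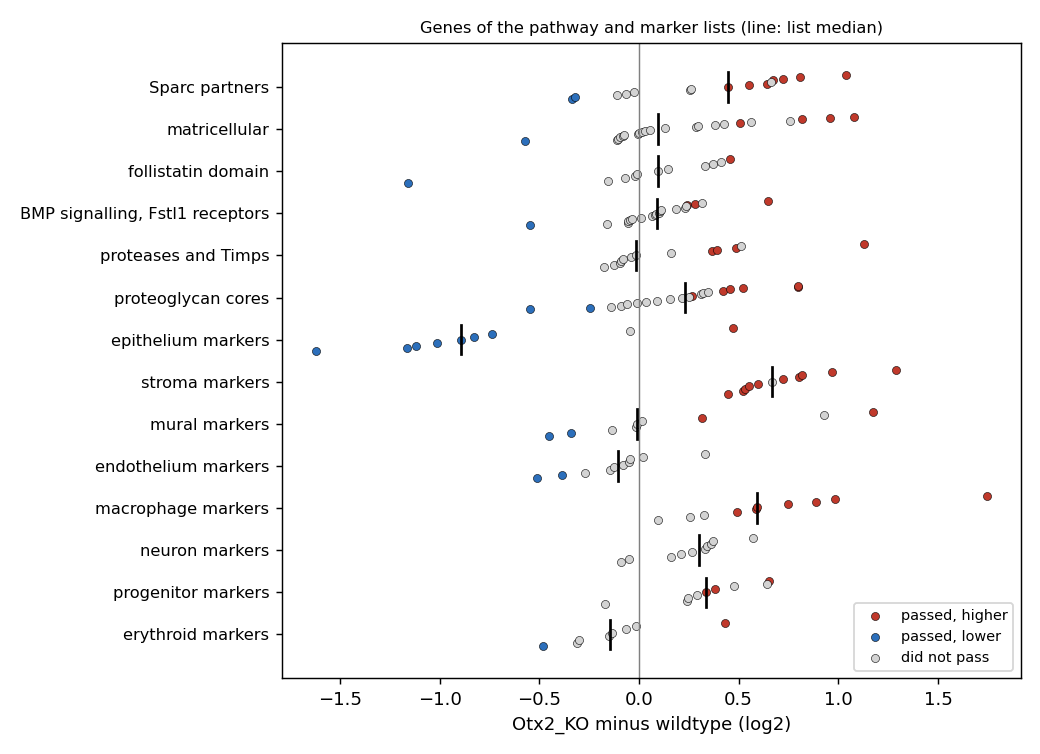
Difference of knockout-labelled minus wildtype on the log2 scale (x axis) for the genes of the 6 pathway lists and 8 cell type marker lists (y axis), 1 point per gene by its brightest probe set, with the list median as a vertical line and colour for the limma call at an adjusted p of 0.05. The median is 0.45 for the partners of Sparc, 0.67 for stroma markers and -0.89 for epithelium markers.

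Markers of the cell types in the tissue also differed. Of 11 stroma markers 10 rose and 0 fell, among them the matrix proteoglycan Lum (0.53, limma adjusted p = 0.000565) and the transcription factor Tbx18 (0.60, limma adjusted p = 0.000667). Their mean log2 level was 10.51 to 10.75 in the knockout-labelled arrays and 9.85 to 10.00 in wildtype, and no marker in the 8 lists had a mean over the 8 arrays under the lower quartile. The stroma marker Pdgfra counted as a rise by its brightest probe set (0.52), but a dimmer one fell by 0.97 (limma adjusted p = 0.00108). Its remaining probe set gave -0.08 and did not pass. Of 9 epithelium markers 7 fell. Those with the smallest p were Tmem72 (-1.62, limma adjusted p = 1.03e-05) and the water channel Aqp1 (-1.01, limma adjusted p = 2.4e-05), and the 1 that rose was Otx2 itself. The remaining marker, Ttr, was the brightest of the 9 and did not pass, at 14.17 ± 0.03 against 14.21 ± 0.04 in wildtype. Its other probe sets gave -0.16 to -0.09 and did not pass either. The marker Kl fell by 1.16 and, at 4.19, lay in the knockout-labelled arrays below the quartile of 4.34. The mean level of the 9 was 10.49 to 10.79 against 11.36 to 11.51. The part of stroma and macrophages in the higher Smoc1, Smoc2, Fstl1 and Spock3 values was not tested.

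Macrophage markers also rose. Of 10 macrophage markers 7 rose and 0 fell, with a mean level of 8.91 to 9.35 against 8.30 to 8.58, and those with the smallest p were the hyaluronan receptor Lyve1 (1.75, limma adjusted p = 0.000725) and Adgre1 (0.89, limma adjusted p = 0.000957). Of 10 endothelium markers 0 rose and 2 fell, the diaphragm protein Plvap (-0.51, limma adjusted p = 0.00138) and the sialomucin Emcn (-0.39, limma adjusted p = 0.00681), with a mean level of 9.11 to 9.32 against 9.24 to 9.47. Of 9 mural cell markers 2 rose, among them Tagln (1.17, limma adjusted p = 0.00296), and 2 fell, among them Abcc9 (-0.45, limma adjusted p = 0.00489), with a mean level of 8.27 to 8.52 against 8.21 to 8.28. Of 9 neural progenitor markers 3 rose, with Nes at 0.65 (limma adjusted p = 0.000568) and Vim at 0.38 (limma adjusted p = 0.0185), and their mean level was 9.36 to 9.81 against 9.09 to 9.62. The Vim call did not hold without knockout-labelled replicate 1 (0.34) or without replicate 3 (0.36) or 4 (0.33) of wildtype. The limma adjusted p was up to 0.0582 there. A dimmer Vim probe set rose by 0.36 with all arrays (limma adjusted p = 0.0209), and another gave 0.22 and did not pass.

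Among 10 neuron markers 0 passed with limma, and 1 had an unadjusted p under 0.05. Gap43 came nearest with 0.57 (limma adjusted p = 0.166), followed by Elavl3 with 0.36 (limma adjusted p = 0.619). Gap43 passed without wildtype replicate 1 (0.82, limma adjusted p = 0.0102). Of 8 erythroid markers the transferrin receptor Tfrc rose (0.43, limma adjusted p = 0.0406) and the heme enzyme Alas2 fell (-0.48, limma adjusted p = 0.00777), with a mean level of 9.52 to 9.84 against 9.71 to 9.87. The Tfrc call was lost in 6 of the 8 comparisons without 1 array, all but those without knockout-labelled replicate 3 or 4 (limma adjusted p up to 0.113).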

How the data were processed

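The authors deposited 1 log2 value for each probe set and array. RMA is the tool that the submitters' processing notes name, with no version. RMA equalises array distributions and compresses very bright and very dim probe sets. No sequencing depth applies, and the number of arrays limits precision. Of 45101 probe sets, 64 controls were left out, 34945 had 1 gene symbol, and 18193 genes were read by their brightest probe set. Knockout-labelled and wildtype arrays were compared with limma 3.58.1 in R 4.3.3 (lmFit, eBayes, genotype only, two-sided), with Benjamini-Hochberg adjustment over all 45037 probe sets. On simulated data with 45037 probe sets it recovered 50.0% of 0.5-unit changes and 98.0% of 1-unit changes. Only 200 probe sets were changed there, with independent noise, whereas 5735 passed in the arrays, so these rates need not hold for the arrays.

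Members and lists were chosen with earlier results of these data known. From each of 6 pathway lists, up to 3 passing genes with the smallest p in each direction are named. From each of 8 marker lists, the 2 with the smallest p are named. For the 3 members with the largest differences, the 3 nearest genes are named. Others were named after their values were seen. List genes without a probe set of their own are not analysed here.

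Same-numbered arrays deviated together from their group means (correlations of 0.180, 0.275, 0.121 and 0.213 across probe sets, each over 0.1); 3 of the 12 differently numbered pairs were over 0.1 as well (0.220, 0.261 and 0.139). By that limit the number was treated as a pairing in a blocked alternative. No label says what it marks. The design text places both groups in the same litters without saying which arrays share one, so p-values measure the spread between these arrays.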

Additional observations from a re-analysis of the deposited data

How the results depend on the processing

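The difference of Otx2 kept its direction and call in all 16 alternatives, and no member, named gene or Otx2 that passed changed sign. Among members that did not pass, the sign changed in some alternative for both Spock1 probe sets, the dimmer ones of Spock2 and Spock3, and Sparc 1458204_at. Spock3 (1449979_a_at) and Smoc2 (1415935_at) kept their sign and call in all alternatives run for them, with differences of 2.12 to 2.50 and 1.09 to 1.30. The alternatives re-use the contrast on which members were in part chosen, so for members they are a description and add no support. The 6 member probe sets that passed became 3 with the replicate block, 3 with arrays centred on their medians, 3 without knockout-labelled replicate 2 and wildtype replicate 1 (chosen after seeing the data), 2 at an adjusted p under 0.01 and 2 with at least a 2-fold difference. Without 1 array they numbered 2 to 6. Among the named list genes the block ended the calls of Smad1, Id2 and Gpc3, and among the nearest profiles those of Cldn19, B230216N24Rik and Slc2a4rg-ps; it changed no other call among the genes that the naming rule gives. Under the block, 10 Sparc partners, 7 matricellular and 3 follistatin-domain genes passed. It brought the BMP signalling genes from 4 to 2, as did centring and the neuron marker covariate. Over all probe sets, 5735 passed, 2796 at 0.01 and 554 with 2-fold. With 2-fold, 1 gene passed in the Sparc partner, matricellular, follistatin, protease, stroma, mural and macrophage lists, 4 in epithelium and 0 in the BMP, proteoglycan, endothelium, progenitor and erythroid lists. At 0.01, 3 passed among matricellular genes, 2 among proteases and mural markers, and 1 among BMP genes, progenitor and erythroid markers. The mean of all probe sets of a gene left 1 follistatin and 1 erythroid gene, the covariate 1 erythroid gene, and the filter at the median level 4 endothelium genes. Without 1 array the count was 1 to 4 for BMP genes, 4 to 8 for matricellular genes, 2 to 5 for mural, 1 to 3 for progenitor, 1 to 2 for erythroid and 0 to 1 for neuron markers. Without knockout-labelled replicate 2 and wildtype replicate 1, 1 neuron marker passed. The causes were not tested. With no detection calls, signal over background was not measured, and 6 member probe sets lay at or under the median brightness.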
